A study of Mus musculus with 20 samples.

Results

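Scd1 knockout livers (Scd1-/-) were compared with wild-type livers (Scd1+/+), both from mice fed chow, across all genes of an Affymetrix whole-genome mouse array. The members are the 5 arrays titled Scd1-/- on chow and the 5 titled Scd1+/+ on chow, 10 of the 20 arrays of the series. Each array was hybridized with biotin-labelled cRNA from 1 flash-frozen liver of 1 mouse. The other 10 arrays hold the same pair of genotypes, 5 livers each, on a very-low-fat diet. They were normalized and fitted together with the chow arrays, so their spread enters the p-values on chow. They also show where the comparison on chow differs. The genotype labels name no tissue-specific Cre, and the labels state neither strain, age, sex and feeding state nor the hour of collection and the weeks on a diet.

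Stearoyl-CoA desaturase sits in the endoplasmic reticulum and puts a double bond into palmitoyl- and stearoyl-CoA, which gives palmitoleate and oleate. Scd1 is the main isoform of mouse liver, and its products go into triglyceride, cholesterol esters and membrane phospholipid. Insulin, carbohydrate and liver X receptor ligands raise its transcription through SREBP-1c and related factors. Chow supplies monounsaturated fat with the food, whereas on a very-low-fat diet the liver depends on its own desaturase for these fatty acids.

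The chow arrays differed between genotypes in 3 of 4 quality measures. Deposited array medians were 33.8 ± 0.92 (SD, n = 5; 32.3 to 34.6) in the knockout and 35.4 ± 0.85 (34.5 to 36.6) in the wild type (exact permutation test, two-sided, p = 0.0159), and the hybridization controls gave p = 0.238. The ratio of 3' to 5' signal of the actin control probe sets, which rises as RNA is degraded, was 2.25 ± 0.12 (SD, n = 5) in the knockout and 2.70 ± 0.24 in the wild type, without overlap (exact permutation test, two-sided, p = 0.00794, the smallest that 5 against 5 allows). The same ratio for GAPDH was 1.37 ± 0.03 against 1.55 ± 0.12 (exact permutation p = 0.00794). The medians and ratios moved with genotype, and their part in the results given here was not tested. Knockout array 3 stood apart from the other 9 arrays on the leading principal component of the chow arrays, which held 46.8% of their variance. This component placed knockout array 3 at -55.8 and the other knockout arrays between -17.4 and -2.57. The wild-type arrays lay between 7.70 and 30.8, so the genotypes did not overlap on it. Summed intensity of 15 hepatocyte identity markers ranged from 92038 to 96804 in the knockout and from 92386 to 94720 in the wild type. All 10 livers carried Xist, transcribed from the inactive X chromosome, at deposited intensities of 1095 to 1771, while the Y-linked genes Eif2s3y, Kdm5d and Uty lay between 5.72 and 18.5.

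Scd1 itself was the largest difference. Its normalized intensity was 51.9, 51.3, 29.1, 39.4 and 57.8 in knockout livers 1 to 5 and 7631, 6493, 8805, 10421 and 9929 in wild-type livers 1 to 5. Every knockout array was close to the array median and every wild-type array far above it. The fitted difference was 191-fold (log2 -7.58 ± 0.16, estimate ± standard error; limma with Benjamini-Hochberg adjustment, adjusted p = 1.28e-15), a size that background limits. A second, dimmer Scd1 probe set fell by 4.61 ± 0.28 on the log2 scale and lay at the floor on 4 of the 10 chow arrays. Where the probe sets lie relative to the deletion is not stated in the labels. The other measured desaturases were not called. Scd2, the isoform of brain and growing tissue, was at 24.8, 45.3, 72.7, 53.1 and 43.6 in the knockout against 26.9, 43.9, 35.5, 33.0 and 56.7 in the wild type, which overlap (0.25 ± 0.32, adjusted p = 0.816). Scd3, the skin isoform, was at 27.8 ± 1.45 against 31.6 ± 5.15 (-0.17 ± 0.10, adjusted p = 0.371). Among the genes nearest to Scd1 on its chromosome, 20 measured genes to each side, only Cox15, a heme A synthesis enzyme of mitochondria, was also called (0.49 ± 0.11, adjusted p = 0.0392). Cox15 was still called in 2 of the 10 fits that each left out 1 chow array, with adjusted p up to 0.111.

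Next to Scd1, the largest fall was that of Csad, the cysteine sulfinic acid decarboxylase that commits cysteine carbon to taurine, the amino acid to which mouse bile acids are conjugated. Knockout livers 1 to 5 had 326, 155, 133, 269 and 122, and wild-type livers 1 to 5 had 1247, 1343, 1514, 536 and 1368. The groups did not overlap, and wild-type array 4 lay far below the other 4 wild-type arrays. Csad fell by 2.61 ± 0.34 on the log2 scale (limma adjusted p = 0.00249). It was called in all 10 fits that each left out 1 chow array, with adjusted p up to 0.0122, and with the 10 chow arrays normalized and fitted alone (adjusted p = 0.0431). Across 21 alternative settings it was called in 20, with limma adjusted p up to 0.0503. The single probe set named for Csad belongs to a class that can read several transcripts. On the very-low-fat diet Csad was low in both genotypes, at 143 ± 56.2 in the knockout and 175 ± 48.5 in the wild type, and the genotypes were not called different (-0.32 ± 0.34, adjusted p = 0.586). The difference between the genotype effects on the 2 diets passed its own test (log2 -2.29 ± 0.48, adjusted p = 0.00166). Of 21 measured genes of taurine and sulfur amino acid metabolism, Csad was the only one called (0 up, 1 down). Over all 15998 genes off the floor on some chow array 3.34% were called. The list median was -0.02, beside -0.02 over those 15998 genes. The cysteine dioxygenase gene and the other list members gave no call.

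The window around the Csad start is shown because this gene carried the largest fall outside the deleted locus. It runs from 250 bases before to 50 bases after an annotated start and comes from RefSeq with build GRCm38.p6 (chr15:102205003-102205302, minus strand, window 1 of 2). None of the 4 motifs described further on was matched in it, which says only that these letters are not in this window.
Csad: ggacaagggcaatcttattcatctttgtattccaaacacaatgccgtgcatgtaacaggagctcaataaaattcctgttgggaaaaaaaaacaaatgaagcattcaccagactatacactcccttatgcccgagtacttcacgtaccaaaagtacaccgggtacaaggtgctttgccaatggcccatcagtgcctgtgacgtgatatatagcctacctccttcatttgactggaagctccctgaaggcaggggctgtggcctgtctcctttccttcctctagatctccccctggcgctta

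Dnase2a, a lysosomal endonuclease that digests DNA of engulfed nuclei, fell with almost the same pattern. Its values were 372, 149, 123, 287 and 174 in knockout livers 1 to 5 and 1166, 972, 1192, 526 and 1133 in wild-type livers 1 to 5. Here too wild-type array 4 was the lowest of its group and the groups did not overlap. The fall was 2.24 ± 0.35 on the log2 scale (limma adjusted p = 0.0117) and was called in all 10 fits that left out 1 chow array (adjusted p up to 0.0370). With the chow arrays fitted alone its adjusted p was 0.0554. The single probe set named for Dnase2a belongs to a class that can read several transcripts, so the signal may not be Dnase2a alone. On the very-low-fat diet it did not differ between genotypes (-0.30 ± 0.35, adjusted p = 0.646), and the difference of effects was called (-1.94 ± 0.50, adjusted p = 0.00884).

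**Figure D1:**
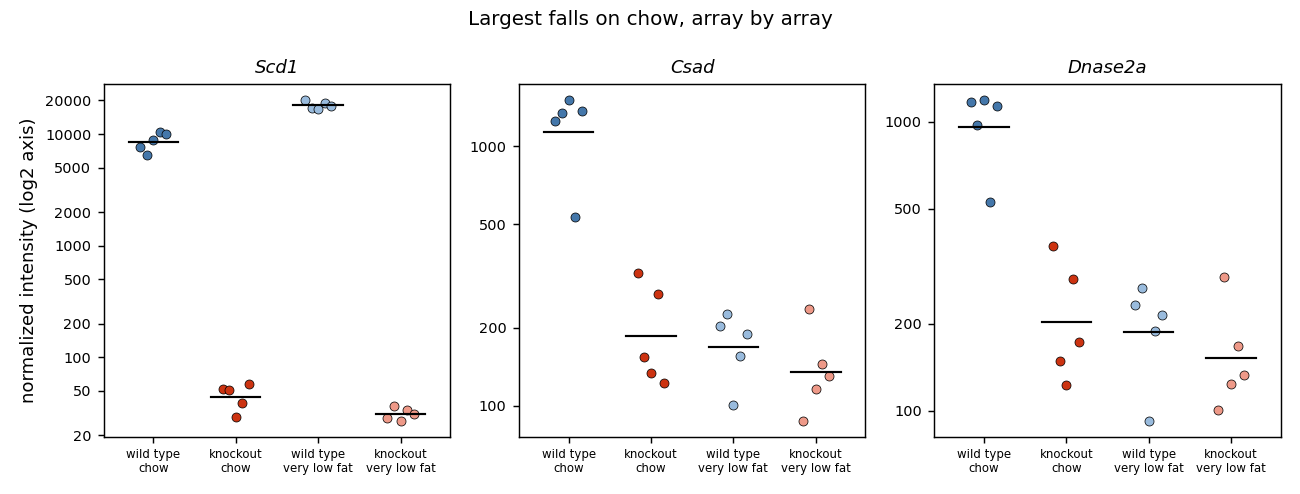
Normalized intensity of Scd1, Csad and Dnase2a on a log2 axis in the 4 groups, 1 point per liver (5 per group), with the geometric mean of each group as a bar. Csad and Dnase2a are high only in wild-type chow livers, with wild-type array 4 the lowest point of that group at 536 and 526.

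Over the whole array 534 of 18193 genes were called between knockout and wild type on chow (2.94%; limma over all 20 arrays, adjusted p under 0.05), 224 higher (1.23%) and 310 lower (1.7%) in the knockout. On the very-low-fat diet the same contrast called 7668 genes (42.1%). Of the chow calls, 394 were smaller than 0.5 on the log2 scale, 11 rises and 4 falls reached 2-fold, 439 had an adjusted p between 0.03 and 0.05, and 8 were under 0.01. Counted over the 15998 genes off the floor on some chow array the calls came to 3.34% (1.4% higher, 1.94% lower), and 2.63% of the 45037 probe sets were called. At unadjusted p under 0.05, 10.8% of the 15998 genes were higher and 16.8% lower. In 401 of the calls the 5 knockout and 5 wild-type values did not overlap, which was so for 6.98% of the 15998 genes (2.8% with the knockout higher, 4.18% with it lower). Just inside the threshold lay Lcn4 (adjusted p = 0.0495), Irf1 and Wdr33 (both 0.0498), and just outside lay Serf1 and Dusp8 (both 0.0502) and Armcx2 (0.0503). With arrays scaled to their median only, in place of quantile normalization, 84.3% of calls were rises, against 41.9% here.

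The number of calls depended on single arrays. It was 188, 1034, 32 and 59 without knockout array 1, 2, 3 or 4, and 25, 222, 258, 69 and 817 without wild-type array 1, 2, 3, 4 or 5. Without knockout array 5 it was 470. When the 10 chow arrays were normalized and fitted alone, 11 genes were called at adjusted p under 0.05 and 758 at adjusted p under 0.1, and 405 of the 534 calls were among the latter. Among the 40 called genes named by rule in this section, all 40 kept their direction in every such leave-one-out fit, 7 kept the call in all 10 fits and 30 in 5 or more.

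**Figure D2:**
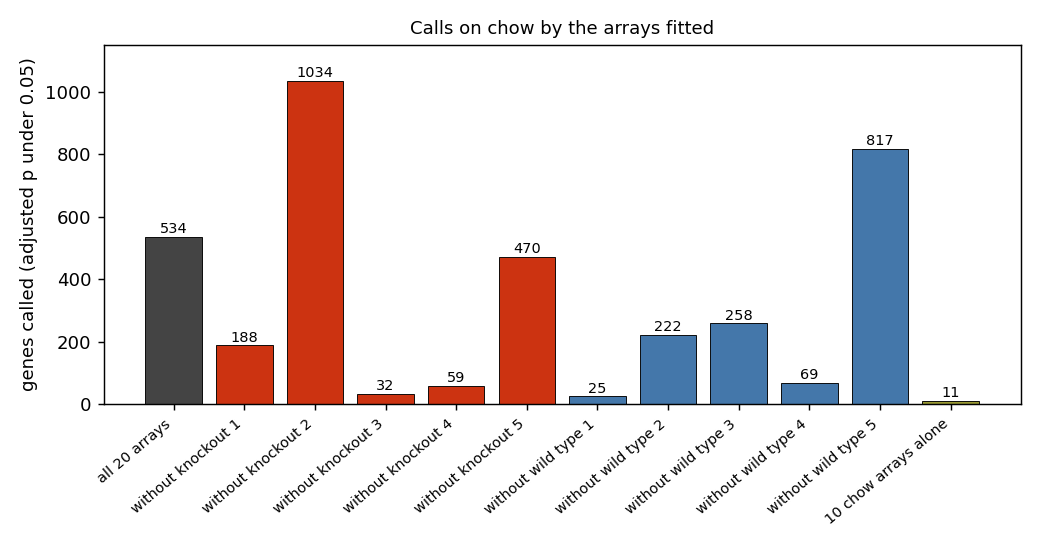
Number of genes called between knockout and wild type on chow (bars, linear axis from 0) with all 20 arrays, without each chow array in turn, and with the 10 chow arrays alone. The count runs from 25 without wild-type array 1 to 1034 without knockout array 2, and is 11 with the chow arrays alone.

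In 22 genes, 14 higher and 8 lower in the knockout, the call survived every one of the 10 leave-outs. These genes were picked after their values were seen. The smallest adjusted p after Scd1 belonged to Asah2 and Diaph2. Asah2 is the neutral ceramidase, which splits ceramide into sphingosine and a fatty acid. Knockout livers 1 to 5 had 198, 202, 201, 171 and 213 and wild-type livers 1 to 5 had 103, 107, 131, 120 and 132, a rise of 0.74 ± 0.08 (limma adjusted p = 0.000364; 0.0200 with the chow arrays alone). On the very-low-fat diet Asah2 was lower in the knockout (-0.37, adjusted p = 0.00160), and the difference of effects was called (adjusted p = 1.41e-06). Diaph2, a formin that nucleates actin filaments, was at 208, 211, 239, 209 and 211 in the knockout against 138, 133, 141, 152 and 150 in the wild type (0.59 ± 0.06, adjusted p = 0.000364). For both genes every knockout liver lay above every wild-type liver.

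The other rises of this set were modest in size. Tgfbr2, a receptor for transforming growth factor beta, rose by 0.58 ± 0.09 (adjusted p = 0.0117), from 160.5 ± 16.5 to 239 ± 19.2. Hivep1, a zinc finger transcription factor, rose by 0.74 ± 0.10 (adjusted p = 0.00653). Rev1, a translesion DNA polymerase, rose by 0.65 ± 0.10, and Ercc3, a helicase of transcription factor TFIIH, by 0.38 ± 0.06. Cast, the inhibitor of calpain proteases, rose by 0.48 ± 0.07, and Sugct, a mitochondrial CoA transferase of glutarate breakdown, by 0.55 ± 0.08. Rounding out the 14 rises were Errfi1, Rasgef1b, Tsc22d3 and Txndc11, described with their groups, and Pxk (0.47 ± 0.08) and Sntg2 (0.50 ± 0.08). On the falling side, Scd1, Csad and Dnase2a were joined by Kctd2, an adaptor of cullin ubiquitin ligases (-0.57 ± 0.09, adjusted p = 0.0117), by Zim3 (-0.48 ± 0.08) and by Gm12108 (-0.39 ± 0.06). Rer1, which returns membrane proteins from the Golgi to the endoplasmic reticulum, fell by 0.27 ± 0.04. Olfr672 was at the floor of 16 on 4 of 5 knockout arrays and between 18.0 and 19.5 in the wild type, so that its difference (-0.22) is one between values near the floor. Besides Scd1, Csad, Asah2, Diaph2, Sugct, Kctd2, Pxk and Tsc22d3 from this set, the chow arrays alone called Noct, Pgrmc2, a heme-binding membrane protein (-0.40 ± 0.08), and Zdbf2 (-0.47 ± 0.10). Without 1 chow array, the latter pair reached adjusted p up to 0.0737 and 0.0874.

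A list of glucocorticoid-responsive genes held 6 of the rises. The list was chosen with earlier results of these data known, so its share of calls is a description and no test. Glucocorticoids bind a cytosolic receptor that enters the nucleus and switches on genes of fuel mobilization, growth restraint and inflammation control, and in liver this response follows fasting, stress and the daily rhythm of corticosterone. Of 18 measured members 6 were called higher and 0 lower (33.3%, beside 1.4% of genes off the floor that rose), 17 of 18 differences were above 0, and the list median was 0.59 against -0.02 for all genes. In 5 of the 6 the groups did not overlap, which was also so for 401 of all 534 calls. On the very-low-fat diet 9 of the 18 members were called higher and 5 lower, beside 19.2% and 23% of all 18193 genes. Without knockout array 3, 2 of the 6 stayed called on chow, and with the chow arrays alone Tsc22d3 was the only one (adjusted p of the other 5 0.0554 to 0.0854). With arrays centred on the hybridization controls, 0 of the 6 were called (limma adjusted p 0.0882 to 0.180). The 3' to 5' ratios, 2.25 against 2.70 for actin, moved with genotype as these genes did, and their part was not tested.

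Ddit4, the stress-induced inhibitor of mTOR complex 1 also called REDD1, had the largest rise of any called gene. Its values were 602, 173, 951, 252 and 172 in knockout livers 1 to 5 and 52.8, 111, 78.2, 58.1 and 105 in the wild type. Knockout arrays 1 and 3 were far above the other 3, which still lay above every wild-type array. The rise was 2.12 ± 0.42 (limma adjusted p = 0.0262), and it was called in 7 of 10 leave-one-out fits, with adjusted p up to 0.0759 (without wild-type array 1; 0.0641 without knockout array 3). Cebpd, a transcription factor of the acute phase and of fat cell differentiation, was at 158, 96.5, 299, 102 and 88.8 in the knockout against 38.3, 37.6, 49.7, 35.3 and 82.9 in the wild type. The gap between the groups was small, since wild-type array 5 came close to the lowest knockout array (1.52 ± 0.31, adjusted p = 0.0291, and up to 0.0834 without wild-type array 1). A second, dimmer Cebpd probe set was not called (0.14 ± 0.12, limma adjusted p = 0.588).

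Tsc22d3, the glucocorticoid-induced leucine zipper that restrains NF-kB and AP-1, rose by a steadier amount. Knockout livers 1 to 5 had 1078, 933, 841, 875 and 953, and wild-type livers had 448, 618, 560, 411 and 464, so all knockout arrays lay well above all wild-type arrays. The rise was 0.91 ± 0.15 (adjusted p = 0.0117), called in all 10 leave-one-out fits (adjusted p up to 0.0389) and with the chow arrays alone (adjusted p = 0.0301). A second Tsc22d3 probe set rose by 1.18 ± 0.12 (adjusted p = 0.000117), another differed by 0.14 ± 0.09 (adjusted p = 0.405), and the dimmest, the only one outside the classes that can read several transcripts, by -0.26 ± 0.08 (adjusted p = 0.0736). Errfi1, a feedback inhibitor of the EGF receptor, was at 7821, 7353, 7670, 6419 and 5997 against 3836, 3525, 4785, 3849 and 5057, again without overlap (0.75 ± 0.10, adjusted p = 0.00616; up to 0.0209 in the leave-one-out fits). Its second probe set rose by 1.03 ± 0.15 (adjusted p = 0.00653).

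Per1, a repressor arm of the circadian clock that glucocorticoids also induce, was at 294, 296, 231, 256 and 298 in the knockout against 148, 140, 200, 227 and 143 in the wild type. The lowest knockout array lay only just above the highest wild-type array (0.70 ± 0.14, adjusted p = 0.0290; up to 0.0858 without wild-type array 1). Sgk1, a kinase of salt transport and cell survival, was at 301, 235, 377, 464 and 379 against 160, 162, 238, 115 and 168, with 1 wild-type value inside the knockout range (1.06 ± 0.22, adjusted p = 0.0290; up to 0.0761 with 1 array left out). Sgk1 is outside the naming rule and was added after its values were seen. Another 4 members passed only before adjustment on the rising side. Dusp1, a MAP kinase phosphatase, had 1.14 ± 0.32 (adjusted p = 0.0575), Tat, tyrosine aminotransferase, 0.67 ± 0.19 (0.0573), Fkbp5, a receptor co-chaperone, 0.51 ± 0.22 (0.189) and Lcn2 1.57 ± 0.72 (0.212). The receptor gene Nr3c1 had -0.26 ± 0.11 (adjusted p = 0.162).

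**Figure D3:**
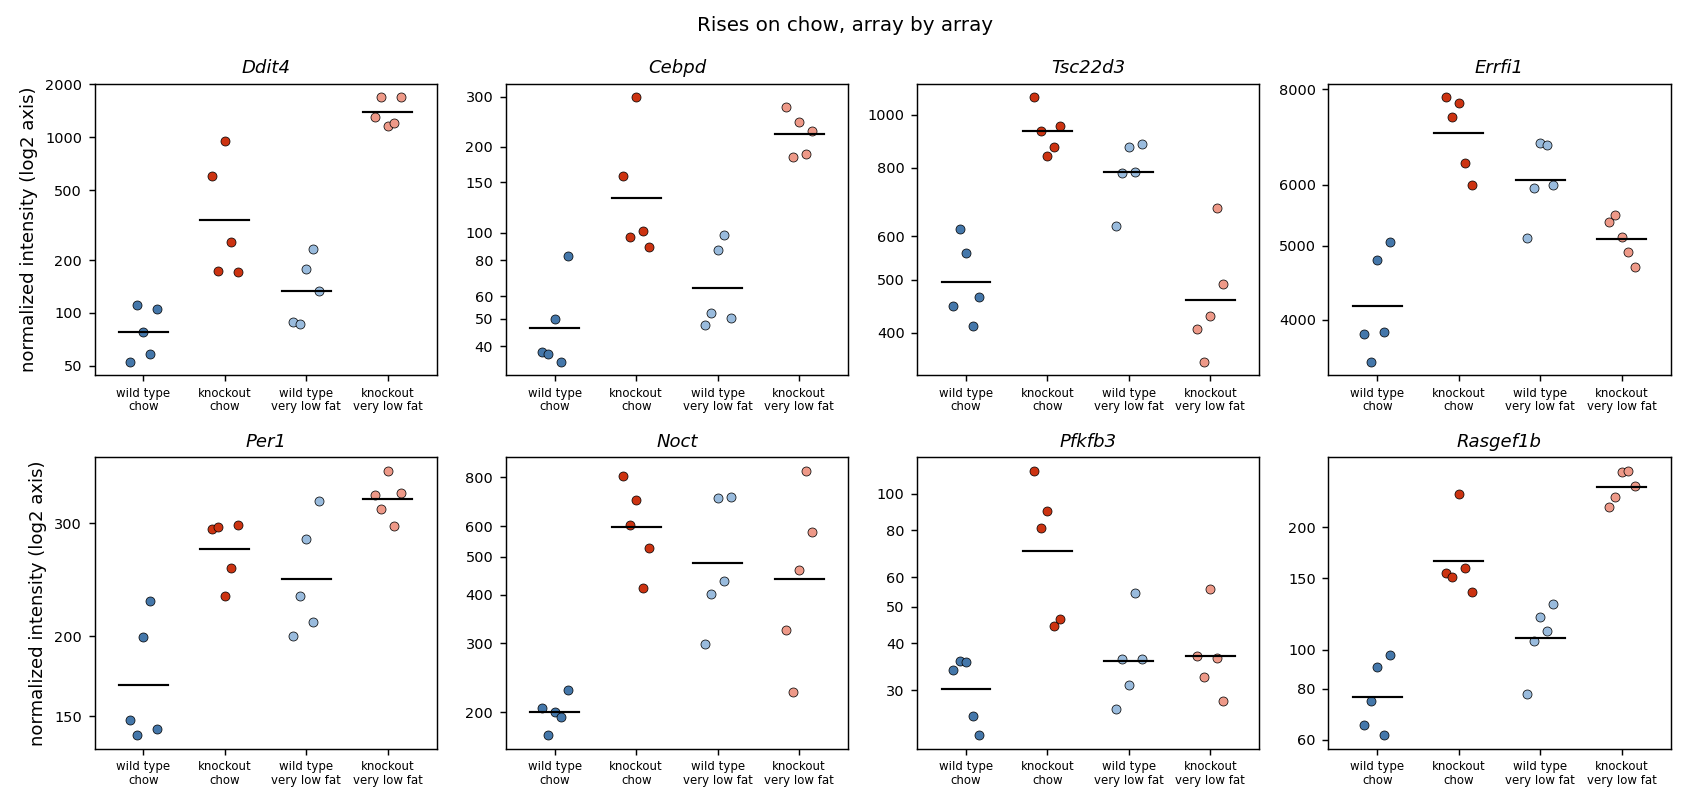
Normalized intensity of 8 genes called higher in knockout chow livers, on log2 axes in the 4 groups, 1 point per liver (5 per group) and the geometric mean as a bar. On chow no knockout point of these genes overlaps the wild-type points, which the naming rule for the largest rises required of all but Errfi1 and Per1. On the very-low-fat diet the mean bars of Tsc22d3 and Errfi1 lie lower in the knockout than in the wild type.

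Promoter windows of the called glucocorticoid-list genes are shown because these members rose together. Of the 6 genes, 5 had RefSeq windows (build GRCm38.p6, 250 bases before to 50 after a start), 14 windows in all. Each of the 14 was searched, 6 held a match to some motif, and those printed were picked because they held one. The shares that follow are per single window, and genes with several windows had several chances of a match. Ddit4 held no match in its only window. Letters were searched on both strands: the palindromic receptor element, which is GNACA and TGTNC with any 3 bases between, found in 0.475% of all 32851 windows, its core AGAACA, in 19%, the E-box CACGTG bound by the clock activators, in 7.15%, and the cAMP response element TGACGTCA, in 1.79%. The core can overlap the full element. Capitals mark matches. Sgk1 (chr10:21993640-21993939, plus strand, window 5 of 6) held the full element at -188, a core at -242, -189 and -180, and an E-box at -246. Sgk1 windows 1 and 4 held a core at -195 and -13, and the other 3 held no match. Per1 (chr11:69098699-69098998, plus strand, window 1 of 2) held an E-box at -166, and window 2 no match. Errfi1 (chr4:150854820-150855119, plus strand, window 2 of 2) held a cAMP response element at -51, and window 1 no match. Tsc22d3 (chrX:140600473-140600772, minus strand, window 2 of 3) held a core at -185, and windows 1 and 3 no match. A match describes letters in the window and no binding was measured.
Sgk1: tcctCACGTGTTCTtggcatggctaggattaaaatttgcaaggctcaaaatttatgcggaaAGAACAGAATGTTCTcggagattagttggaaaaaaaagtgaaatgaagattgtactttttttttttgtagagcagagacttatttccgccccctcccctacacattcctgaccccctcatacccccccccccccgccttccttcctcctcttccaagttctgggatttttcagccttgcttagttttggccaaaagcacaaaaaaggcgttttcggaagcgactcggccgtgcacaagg
Per1: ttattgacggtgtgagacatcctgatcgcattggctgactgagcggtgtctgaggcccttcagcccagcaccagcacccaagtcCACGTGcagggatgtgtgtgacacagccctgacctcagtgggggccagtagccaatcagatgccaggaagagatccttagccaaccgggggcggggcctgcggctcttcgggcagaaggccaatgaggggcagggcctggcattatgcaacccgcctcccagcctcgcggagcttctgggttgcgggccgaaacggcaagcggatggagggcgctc
Errfi1: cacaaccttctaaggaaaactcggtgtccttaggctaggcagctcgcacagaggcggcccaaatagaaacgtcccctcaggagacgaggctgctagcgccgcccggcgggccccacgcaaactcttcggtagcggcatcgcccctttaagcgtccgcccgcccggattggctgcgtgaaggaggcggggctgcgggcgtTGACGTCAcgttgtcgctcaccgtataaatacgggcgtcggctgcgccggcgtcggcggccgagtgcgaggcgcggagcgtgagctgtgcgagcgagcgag
Tsc22d3: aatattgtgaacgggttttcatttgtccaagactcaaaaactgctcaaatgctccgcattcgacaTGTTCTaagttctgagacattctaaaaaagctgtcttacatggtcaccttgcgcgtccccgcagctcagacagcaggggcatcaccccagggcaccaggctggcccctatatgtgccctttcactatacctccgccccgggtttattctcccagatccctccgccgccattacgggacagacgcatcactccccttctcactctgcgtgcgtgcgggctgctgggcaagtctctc

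Clock genes were called in 2 of 21 measured members, both higher (beside 1.4% of genes off the floor that were called higher; list median 0.12). Besides Per1 this was Noct, or nocturnin, a rhythmic phosphatase of NADP(H) that peaks early in the dark phase. Noct was at 806, 605, 700, 416 and 528 in the knockout and at 205, 174, 200, 195 and 228 in the wild type. Wild-type livers were tightly grouped and every knockout liver had a clearly higher level (1.58 ± 0.30, limma adjusted p = 0.0238; 0.00926 with the chow arrays alone). The call held in 8 of 10 leave-one-out fits, with adjusted p of 0.0718 without wild-type array 1 and 0.0651 without knockout array 3. Ciart (1.09 ± 0.32, adjusted p = 0.0668), Usp2 (0.82 ± 0.34, 0.173), Per2 (0.33 ± 0.14, 0.179) and Cry2 (0.33 ± 0.12, 0.125) passed only before adjustment, so that 6 of 21 were higher at unadjusted p under 0.05, beside 10.8% of all genes off the floor. In the list of insulin and nutrient signaling genes, 2 of 21 rose, Ddit4 and Tsc22d3, both counted above, and 0 fell (list median 0.18). Over all genes off the floor 1.4% were called higher and 1.94% lower. Before adjustment 6 were higher and 1 lower, beside 10.8% and 16.8% of all genes off the floor.

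Several single genes outside these lists rose about as far. Rasgef1b, a guanine nucleotide exchange factor for Ras family proteins, was at 154, 151, 241, 159 and 138 in the knockout and 65.2, 74.9, 90.5, 61.5 and 97.1 in the wild type. Knockout array 3 was again the highest, but the other 4 knockout arrays lay close together above the wild type (1.11 ± 0.16, adjusted p = 0.00653; up to 0.0247 in the leave-one-out fits). Pfkfb3, which makes the glycolytic activator fructose 2,6-bisphosphate, was at 115, 81.0, 90.0, 44.4 and 46.5 against 34.0, 35.8, 35.7, 25.6 and 22.7 (1.22 ± 0.26, adjusted p = 0.0306, and 0.0869 without knockout array 3). A second, dimmer Pfkfb3 probe set was not called (0.007 ± 0.09). Kcnk5, a potassium leak channel, was at 324, 344, 333, 190 and 247 against 134, 137, 157, 147 and 113 (1.04 ± 0.20, adjusted p = 0.0244; 0.0737 without wild-type array 1). Tcim, a small regulator of transcription, was at 339 ± 126 against 159 ± 44.6 (1.07 ± 0.23, adjusted p = 0.0336; 0.0874 without knockout array 3).

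Gpcpd1, which splits glycerophosphocholine, was the brightest of the remaining large rises, at 1561, 1198, 1546, 1018 and 1050 in the knockout against 531, 386, 754, 822 and 641. Its groups lay apart, as the naming rule required (1.05 ± 0.26, adjusted p = 0.0430), but 7 of the 10 leave-one-out fits lost the call (adjusted p up to 0.124, without knockout array 3). Ufl1, the ligase that attaches the ubiquitin-like modifier UFM1 at the endoplasmic reticulum, was at 82.9 ± 23.6 against 40.3 ± 5.55 (1.00 ± 0.18, adjusted p = 0.0195; 0.0554 without wild-type array 1). Txndc11, a thioredoxin-domain protein of the endoplasmic reticulum, was at 158, 129, 207, 151 and 140 against 70.2, 73.8, 66.5, 99.2 and 112 (0.91 ± 0.15, adjusted p = 0.0117; up to 0.0426 in the leave-one-out fits). Ctbs, a lysosomal chitobiase, rose by 0.85 ± 0.18 (adjusted p = 0.0325; 0.0912 without wild-type array 1) and Fndc3b by 0.85 ± 0.22 (adjusted p = 0.0488; 0.133 without knockout array 3).

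Beyond Scd1, Csad and Dnase2a, only Arrdc3 fell by 2-fold or more. Arrdc3, an arrestin-domain adaptor for receptor trafficking, was at 483, 368, 117, 577 and 517 in the knockout and 1077, 1274, 989, 957 and 774 in the wild type. Knockout array 3 was far below its group, and the groups did not overlap, as the naming rule required (-1.47 ± 0.31, adjusted p = 0.0306). Without knockout array 3 the estimate was -1.06 with adjusted p = 0.0203, and without wild-type array 1 the adjusted p was 0.0858. Rnf186, a ubiquitin ligase of the endoplasmic reticulum, was at 132, 201, 87.3, 173 and 161 against 309, 233, 244, 324 and 215 (-0.85 ± 0.19, adjusted p = 0.0368; 0.0967 without wild-type array 1). The other 10 of the 15 largest falls without overlap were 1810019D21Rik, Vmn1r58, Ntrk2, C130026I21Rik, Whrn, Pik3r6, Aplp1, Nxph3, Rgs3 and Adam4, between -0.75 and -0.60. Their adjusted p-values were 0.0238 to 0.0449, and each lost its call in at least 4 leave-one-out fits. Without the probe sets that can read several transcripts, Pik3r6 had 0.12 and Aplp1 0.03. Another, dimmer Whrn probe set was not called (-0.09 ± 0.11, limma adjusted p = 0.814). Rgs3, a GTPase activator for G proteins, was at 170, 168, 121, 155 and 181 against 227, 247, 216, 303 and 219 (-0.61 ± 0.12, adjusted p = 0.0238; 0.0671 without wild-type array 1).

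Genes of the endoplasmic reticulum stress response were called in 2 of 22 measured members, both higher (beside 1.4% of genes off the floor; list median 0.11). Xbp1, the transcription factor activated by IRE1 splicing, was at 2229, 2491, 2546, 3269 and 2856 in the knockout and 1745, 1494, 1749, 1920 and 2198 in the wild type, narrowly apart (0.56 ± 0.11, adjusted p = 0.0282; 0.0759 without wild-type array 1). Another Xbp1 probe set was also called higher (0.42, limma adjusted p = 0.0212). The next brightest was not called (0.26, adjusted p = 0.1003). Nor was the only Xbp1 probe set outside the classes that can read several transcripts (0.098, adjusted p = 0.493). Dnajb9, a co-chaperone of BiP, was at 794, 780, 1264, 1123 and 975 against 667, 476, 584, 602 and 554 (0.76 ± 0.16, adjusted p = 0.0319; 0.0895 without knockout array 3). The chaperone BiP itself, Hspa5, had 0.35 ± 0.16 (adjusted p = 0.208), Herpud1 0.60 ± 0.17 (0.0608) and Hyou1 -0.27 ± 0.07 (0.0549). Of 23 immediate early genes, 1 rose and 1 fell, beside 1.4% and 1.94% of genes off the floor. Btg2, an antiproliferative deadenylation factor, was at 316, 220, 404, 236 and 157 against 92.1, 132, 96.5, 124 and 232, with overlap (0.99 ± 0.24, adjusted p = 0.0428; 0.125 without knockout array 3). Fosl2, an AP-1 subunit, fell by 0.48 ± 0.12 (adjusted p = 0.0451; 0.118 without knockout array 3), but the mean of its probe sets gave 0.01. Heat shock chaperones (13 measured), ATF4 targets (19) and NRF2 targets (20) had 0 calls, with 1, 2 and 1 members higher and 1, 3 and 1 lower at unadjusted p under 0.05 (10.8% higher and 16.8% lower over all genes off the floor).

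The lipid genes closest to the missing enzyme were not called on chow, where 3.34% of all genes off the floor were. Of 24 measured genes of fatty acid and triglyceride synthesis 0 were called by limma, a count near that share. At unadjusted p under 0.05, 0 were higher and 2 lower, beside 10.8% and 16.8% of all genes off the floor, and the list median was -0.08. Fasn, the fatty acid synthase, was at 1661, 1052, 925, 931 and 851 in the knockout and 1068, 833, 1404, 1677 and 866 in the wild type, wholly overlapping (-0.10 ± 0.26). Elovl6, which elongates palmitate to the substrate of Scd1, was at 680, 624, 323, 547 and 459 against 496, 399, 694, 661 and 374 (0.01 ± 0.29). Acaca, the carboxylase that makes malonyl-CoA, differed by -0.17 ± 0.23 (adjusted p = 0.863). In the same list 18 members fell and 3 rose on the very-low-fat diet (median -1.46), beside 23% and 19.2% of all 18193 genes. The difference between diets was called by limma for Fasn (adjusted p = 5.85e-06), Elovl6 (1.78e-06) and Acaca (0.000215).

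Regulators of lipid synthesis were not called. Srebf1, which encodes SREBP-1, was at 1454, 1566, 1114, 1236 and 1622 against 1710, 1334, 1576, 1716 and 1266 (-0.12 ± 0.17). Mlxipl, which encodes the carbohydrate sensor ChREBP, was at 691 ± 161 against 866 ± 83.0 (-0.36 ± 0.16, adjusted p = 0.204), with knockout array 3 the lowest at 430. Srebf2, the regulator of cholesterol synthesis (-0.05 ± 0.11), its retention factors Insig1 (0.07 ± 0.11) and Insig2 (-0.38 ± 0.20), and Pparg, the adipocyte receptor (0.21 ± 0.09), were likewise not called. Among 13 lipogenic factors 0 were called, with 1 higher and 2 lower at unadjusted p under 0.05. Over all genes off the floor 3.34% were called, so 0 calls in lists of this size is near that share. Before adjustment 10.8% of those genes were higher and 16.8% lower. Cholesterol synthesis and uptake had 0 of 18, with 0 and 1, and a list median of -0.16. Lipoproteins had 0 of 17, with 0 and 1, and lipid droplet and fatty acid uptake genes 0 of 22, with 1 and 1. Standard errors of the 9 genes named for lipid synthesis and its regulation were 0.09 to 0.29.

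Phospholipid enzymes gave 2 calls in 18, both lower, beside 1.94% of genes off the floor that were called lower (list median -0.11). At unadjusted p under 0.05, 6 were lower and 0 higher, beside 16.8% and 10.8% over all genes off the floor. Pcyt2 makes CDP-ethanolamine for phosphatidylethanolamine. It was at 1539, 1362, 1308, 1439 and 1410 in the knockout against 1569, 1839, 1775, 1973 and 1879 in the wild type, with wild-type array 1 close to the knockout range (-0.35 ± 0.06, adjusted p = 0.0203; 0.0562 without knockout array 3). Lpcat1, which reacylates lysophosphatidylcholine, was at 105, 124, 90.9, 105 and 115 against 156, 144, 140, 127 and 126 (-0.36 ± 0.09, adjusted p = 0.0428; 0.126 without knockout array 3). The 4 others lower before adjustment were Pla2g6 (-0.55 ± 0.16), Pisd (-0.44 ± 0.15), Ptdss2 (-0.30 ± 0.08) and Lpcat4 (-0.27 ± 0.09), with adjusted p of 0.0575 to 0.0926. Without knockout array 3, 0 of the 18 were called.

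Fatty acid oxidation and bile acid synthesis had 0 calls, counts near the 3.34% called over all genes off the floor. Of 26 PPARalpha targets 0 were called, with 1 higher and 0 lower at unadjusted p under 0.05. The shares over all genes off the floor were 10.8% and 16.8%. Ppara itself was at 2615 ± 344 against 2405 ± 564 (0.15 ± 0.17), and Cpt1a, the gate for fatty acids into mitochondria, at 2167, 1791, 2106, 2202 and 1977 against 1783, 1508, 2054, 1689 and 1486 (0.27 ± 0.12, adjusted p = 0.206). Ppargc1a, a coactivator of mitochondrial and fasting genes (0.33 ± 0.27), and the hepatokine gene Fgf21 (-0.18 ± 0.21) were not called. Of 16 bile acid synthesis genes 0 were called, with 0 higher and 1 lower before adjustment, beside the same shares. Cyp7a1, the rate-limiting enzyme, was at 1955, 649, 747, 2338 and 2248 against 1183, 587, 2922, 1663 and 1279, and Cyp8b1, the 12-hydroxylase of cholic acid synthesis, at 1788, 746, 882, 3233 and 1756 against 1431, 640, 2292, 1911 and 2178. Both varied several-fold within each group, with estimates of 0.04 ± 0.48 and -0.08 ± 0.41. Among 16 transporters 1 was called, beside 3.34% of all genes off the floor. It was Abcc4, a basolateral efflux pump for conjugated bile acids, called higher at 50.5, 60.4, 68.4, 57.3 and 61.9 against 32.8, 39.9, 38.5, 33.0 and 59.6. Wild-type array 5 lay inside the knockout range (0.58 ± 0.15, adjusted p = 0.0482; 0.136 without knockout array 3).

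Of 20 measured genes of glycolysis and gluconeogenesis 0 were called by limma, beside 3.34% of all genes off the floor. At unadjusted p under 0.05, 7 were higher and 1 lower, beside 10.8% and 16.8%, and the list median was 0.14. Slc37a4, the glucose 6-phosphate carrier, had 0.53 ± 0.16 (adjusted p = 0.0646) with groups apart. Pck1, the cytosolic phosphoenolpyruvate carboxykinase, was at 7077, 6784, 6969, 4105 and 5626 against 3965, 5552, 4476, 4301 and 4586 (0.40 ± 0.14, adjusted p = 0.108). When its probe sets were averaged the estimate was 0.42 with adjusted p = 0.0459. G6pc, the glucose 6-phosphatase, was at 1092, 1975, 2353, 1235 and 1271 against 1148, 1265, 1151, 723 and 759 (0.62 ± 0.26, adjusted p = 0.170), and Gys2, liver glycogen synthase, had 0.46 ± 0.14 (0.0684).

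The list of macrophage and Kupffer cell markers held a single call on chow. Of 20 markers, 1 was called higher and 0 lower, beside 1.4% and 1.94% of genes off the floor. At unadjusted p under 0.05, 7 were higher and 0 lower, beside 10.8% and 16.8%. Their summed intensity was 11391 to 16756 in the knockout and 11449 to 12438 in the wild type, with 0 of the 20 at the floor throughout a group. The called marker was Cd163, a haemoglobin scavenger receptor, at 213, 214, 401, 208 and 207 in the knockout and 122, 182, 163, 131 and 67.7 in the wild type. Apart from knockout array 3 the knockout values were nearly equal (0.93 ± 0.23, adjusted p = 0.0430; 0.123 without knockout array 3). In whole liver, more macrophages and more Cd163 RNA per macrophage cannot be told apart. Rgs1, a G-protein regulator of leukocytes, was at 31.1, 30.9, 78.9, 30.8 and 37.2 against 21.4, 19.0, 25.5, 20.5 and 21.4, near background and highest on knockout array 3 (0.85 ± 0.21, adjusted p = 0.0428; 0.103 without wild-type array 1). Irf1, an interferon-induced factor, fell by 0.58 ± 0.15 (adjusted p = 0.0498; 0.137 without knockout array 3) and was the single call among 20 interferon genes, beside 3.34% of genes off the floor.

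Acute phase proteins had 0 calls of 23 by limma, beside 3.34% of all genes off the floor, and a list median of 0.24. At unadjusted p under 0.05, 6 were higher and 0 lower (10.8% and 16.8% over all genes off the floor). Lrg1 (0.88 ± 0.26, adjusted p = 0.0651), Serpina3n (0.68 ± 0.21, 0.0745) and Orm1 (0.39 ± 0.11, 0.0549) had groups apart. Stellate cell markers had 0 calls of 18, with 0 higher and 5 lower before adjustment (beside the same shares; median -0.14), and their sums were 5236 to 6231 against 5680 to 7059. Neutrophil marker sums were 659 to 1483 in the knockout and 633 to 757 in the wild type, with 0 calls of 10 and 2 higher and 2 lower before adjustment. Endothelial markers (0 calls of 16; 3 higher and 1 lower before adjustment), lymphocyte markers (0 of 12; 1 and 3) and cholangiocyte markers (0 of 8; 0 and 2) had sums that overlapped between genotypes. Cell cycle genes, which rose in 18 of 21 on the very-low-fat diet (beside 19.2% of all 18193 genes), had 0 calls on chow, with 1 higher and 0 lower before adjustment.

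**Figure D4:**
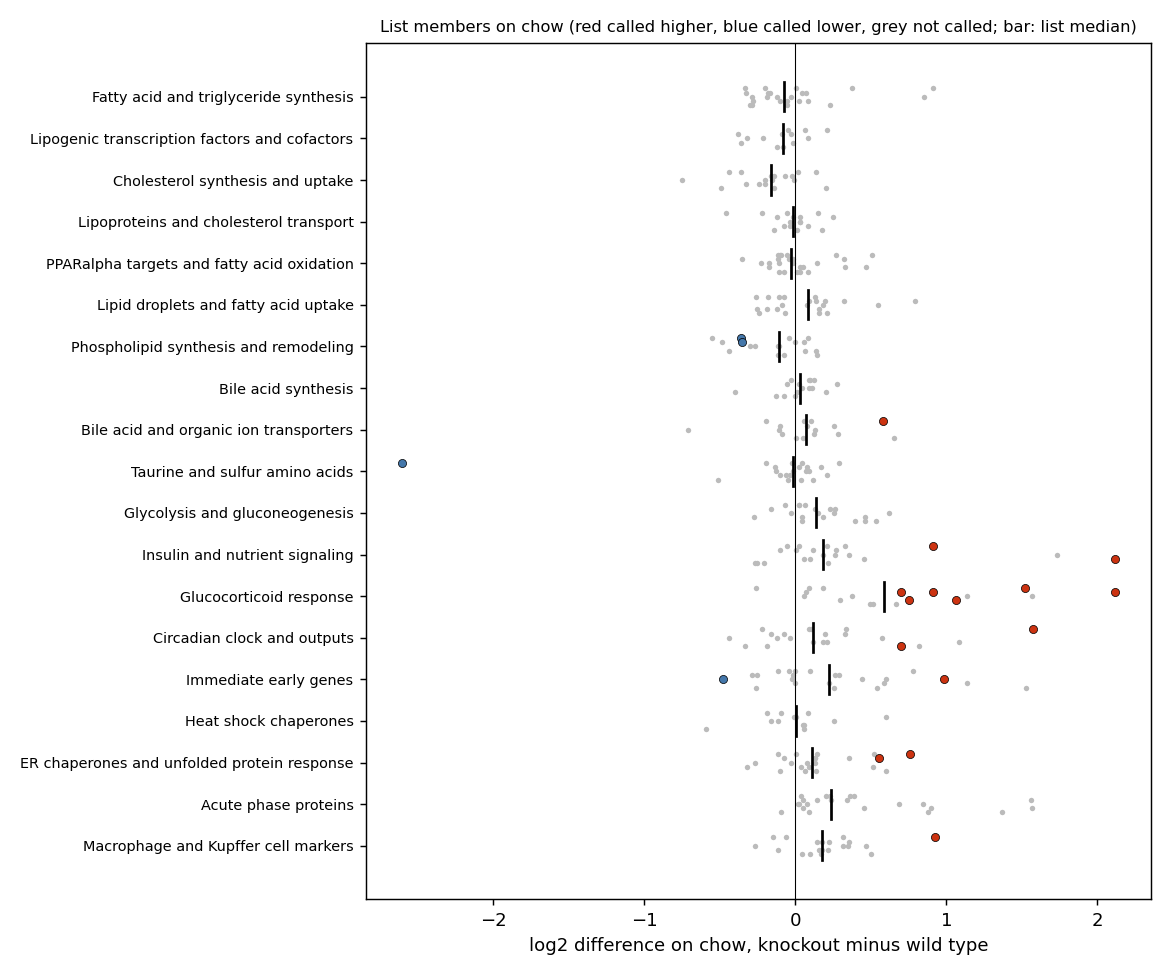
Log2 difference on chow, knockout minus wild type, for each measured member of 19 gene lists (points; red called higher, blue called lower, grey not called, black bar the list median). The glucocorticoid list has 6 red points and a median of 0.59. The lists of fatty acid and triglyceride synthesis, lipogenic factors and cholesterol synthesis have 0 calls and medians of -0.08, -0.08 and -0.16. The phospholipid list has 2 blue points and a median of -0.11.

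The comparison on chow overlapped in part with that on the very-low-fat diet, which used other livers. Both came from 1 fit and shared each gene's estimate of spread, so the 2 sets of calls are not independent. Of the 224 rises on chow, 104 were also called higher (46.4% of the chow rises and 2.98% of the 3491 rises on the other diet), 37 were called lower and 83 were not called. Of the 310 falls, 161 were also called lower (51.9% of the chow falls and 3.85% of 4177), 9 were called higher and 140 were not called. The background on the very-low-fat diet was 19.2% of all 18193 genes higher and 23% lower, genes at the floor included. The 265 calls in a shared direction fell to 13 without wild-type chow array 1, 15 without knockout array 3, 26 without knockout array 4, 27 without wild-type array 4, 92 without knockout array 1, 110 and 125 without wild-type arrays 2 and 3, and rose to 492 without knockout array 2 and 398 without wild-type array 5.

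The test of the difference itself called 167 of the 534 chow calls, beside 24.2% of all genes. In 89 of them the estimate was larger on chow and in 78 larger on the very-low-fat diet. Tsc22d3 was called in opposite directions, higher on chow and lower on the very-low-fat diet (0.91 ± 0.15 and -0.77 ± 0.15; difference 1.69, adjusted p = 1.01e-05). Its wild-type level was 500.4 ± 85.7 on chow and 791 ± 103 on the other diet, and its knockout level 936 ± 91.3 and 472 ± 125. Tcim (1.07 and -0.81) and Kcnk5 (1.04 and -0.56) were also called in opposite directions. Noct and Pfkfb3 rose on chow and had -0.14 and 0.04 on the very-low-fat diet, with differences called at adjusted p of 0.00623 and 0.0292. Errfi1 rose on chow and had -0.26 ± 0.10 on the other diet (adjusted p = 0.0691; difference 1.01, adjusted p = 5.82e-05). In the other group stand Abcc4 (0.58 on chow, 3.18 on the very-low-fat diet), Rgs1 (0.85 and 2.71), Btg2 (0.99 and 2.52) and Sgk1 (1.06 and 2.47), all called higher on both diets with a called difference. Ddit4 (2.12 and 3.38), Cebpd (1.52 and 1.79) and Rasgef1b (1.11 and 1.23) were higher on both diets, with adjusted p for the difference of 0.177, 0.938 and 0.970.

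**Figure D5:**
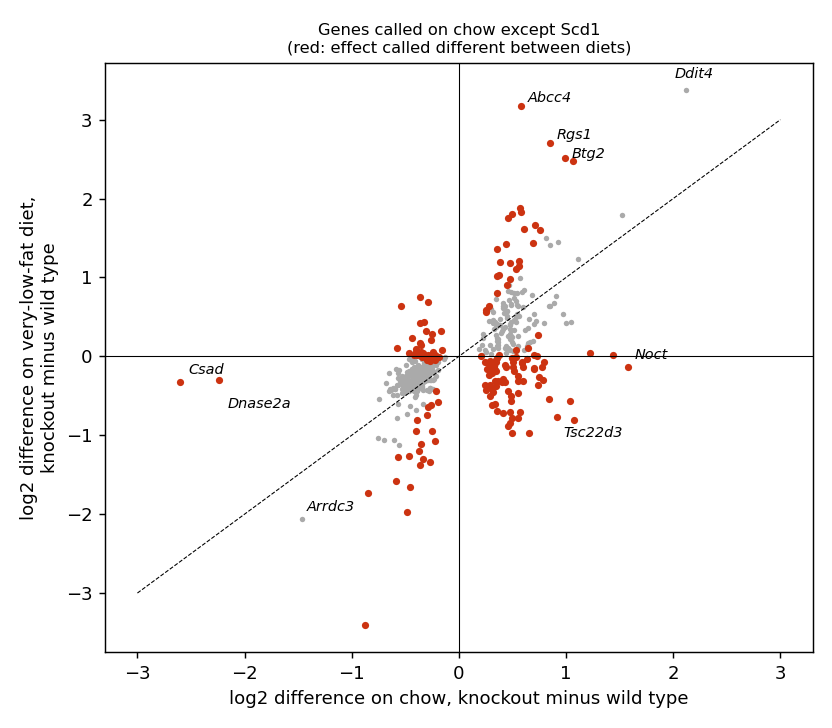
Log2 difference between knockout and wild type on chow (x axis) against that on the very-low-fat diet (y axis) for the genes called on chow, Scd1 left out, with the line of equal effects dashed. Red points are the genes whose effect was called different between diets; Csad and Dnase2a lie at -2.61 and -2.24 on chow and near 0 on the other diet.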

How the data were processed

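Total RNA of 20 flash-frozen mouse livers was hybridized to 1 array each. The deposited table gives linear intensity for 45101 probe sets. Per the submitters' processing notes MAS5 and RMA were in use, without a version, and the notes do not say which of them produced the deposited intensity values. Each array was scaled to the same median, values under 16 were set to 16, and log2 values were quantile-normalized; 64 control probe sets were removed. A mean per group was fitted over all 20 arrays in R 4.3.3 by limma 3.58.1 (16 residual and 1.94 prior degrees of freedom), with Benjamini-Hochberg adjustment over 45037 probe sets, of which 9118 at the floor everywhere counted as unchanged. A gene was called at adjusted p under 0.05. Standard errors follow ± in log2 estimates. The brightest probe set stood for each of 18193 genes, among those with 1 symbol (34945; 932 had several and 9160 none). Of 317 called genes with other probe sets, 40 had another called the same way and 0 had one called the other way.

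Array quality was compared by exact permutation tests, two-sided. The members, the 42 gene lists, the preset genes and the tests were chosen with earlier results of these data known. Genes named are Scd1, the 15 largest rises and 15 largest falls called without overlap, in each list the called members of smallest adjusted p (at most 4), and 26 preset genes (23 with values). Others are said to have been added after their values were seen, and list members named as not called carry their adjusted p. Lists were described by counts and medians over members off the floor on some chow array. Alternatives changed the floor, probe set choice, scaling, array weights, replicate block and arrays fitted. Array number limits the precision. The limma p-values rest on the spread between individual livers pooled over the 4 groups of both diets, moderated by the prior, and not on the chow livers alone. Promoter windows are RefSeq's (GRCm38.p6). Figures used matplotlib 3.10.9 in Python 3.11.15.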

Additional observations from a re-analysis of the deposited data

Results flagged for a closer look

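In 28 of the 59 named genes the knockout effect on chow differed from that on the very-low-fat diet by the test of the difference itself (limma, adjusted p under 0.05). Each value here is the log2 effect on chow minus the log2 effect on the very-low-fat diet. The difference was negative for Abcc4 (-2.60), Csad (-2.29), Dnase2a (-1.94), Rgs1 (-1.85), Scd2 (-1.59), Btg2 (-1.53), Ppargc1a (-1.26) and Dnajb9 (-0.84). Of these only Csad and Dnase2a were larger in size on chow. Among genes called higher on chow the difference was positive for Tcim (1.88), Noct (1.71), Tsc22d3 (1.69), Kcnk5 (1.60), Pfkfb3 (1.18) and Errfi1 (1.01). Among genes that fell on both diets, and further on the very-low-fat diet, it was 1.60 for Scd1, 0.88 for Rnf186 and 0.76 for Pcyt2. Knockout Scd1 was near background on both diets, at 45.9 on chow and 31.5 on the very-low-fat diet. Wild-type Scd1 was at 8656 on chow and 18162 on the very-low-fat diet. For lipid, bile acid and glucose genes not called on chow the difference was 3.86 for Cyp8b1, 3.85 for Elovl6, 3.13 for Fasn, 2.33 for Cyp7a1, 1.99 for Acaca, 1.80 for Srebf1, 1.67 for Ppara, 1.32 for Mlxipl, 0.92 for Cpt1a, 0.80 for Insig1 and 0.73 for Pck1.

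Single arrays stood far from the rest of their group in 6 of 118 gene and group pairs examined, where chance marks about 1 in 20. The share of the group's log2 range taken by the gap was 0.95 for Cd163 (401 on knockout array 3, others 207 to 214), 0.80 for Rgs1 (78.9, others 30.8 to 37.2), 0.752 for Rasgef1b (241, others 138 to 159) and 0.719 for Arrdc3 (117, others 368 to 577), all on knockout array 3. It was 0.814 for Csad (536 on wild-type array 4, others 1247 to 1514) and 0.751 for Dnase2a (526 on the same array, others 972 to 1192).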

How the results depend on the processing

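The number of chow calls moved with the setting, while genes called both above and in another setting kept their direction. The balance of rises and falls moved as well, with 84.3% rises under median scaling against 41.9% above. Leaving out 1 chow array gave 25 to 1034 calls (15 to 382 up, 10 to 652 down), 13 to 492 calls shared with the very-low-fat diet in direction, and 4116 to 4596 genes with a called difference between diets. The chow arrays normalized and fitted alone gave 11 calls (6 up, 5 down), and fitted alone after joint normalization 10 (6 up, 4 down). With array weights they gave 64 (39 up, 25 down), and at adjusted p under 0.1 they gave 758, with 353 up. Without knockout array 3 at that threshold there were 234 (109 up, 125 down; 125 shared with the other diet). These last 4 settings were added after the data were seen. Only probe sets above the array median gave 1317 calls (513 up, 804 down; 728 shared), median scaling 1491 (1257 up; 624 shared), and centring on the hybridization controls 3 (1 up, 2 down; 1 shared); median scaling moved the median of all genes by 0.02 and the controls by -0.06 in log2. The mean of a gene's probe sets gave 372 up, leaving out probe sets that may read several transcripts 205 down, and array weights 413 shared. Replicate numbers did not pair the livers, since same-numbered livers correlated at -0.12 to 0.09; with a replicate block there were 258 calls (125 up, 133 down; 128 shared). The difference between diets stayed within 1.5 times of its count of 4403 in all settings run.

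Of the 40 named calls, 4 estimates changed sign: Tsc22d3 (-0.26), Pik3r6 (0.12) and Aplp1 (0.033) without probe sets that may read several transcripts, and Fosl2 (0.015) with probe sets averaged; the other probe sets read were different sequences, and the cause was not tested. Of the 19 named genes not called, 8 changed sign in some setting, and Pck1 was called with probe sets averaged. Array number and intensity near background limit the dim genes.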
